A study of Rattus norvegicus with 10 samples.

Results

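The mitochondrially encoded genes were taken as every entry that carries the same reference sequence name, MT, as COX1 in the 4 deposited gene tables. They were 37 of the 40903 entries of each table, namely 13 mRNA entries, 2 rRNA entries and 22 tRNA entries. Coordinates are those of the deposited tables on rn7, in bases of MT, and each entry is a single span, since these genes have no introns. All 37 passed the filter on low values, a mean of at least 1 TPM (a level scaled for transcript length, whose sum is the same in each library). RNA had been sequenced from cultured neonatal rat cardiomyocytes, the contractile cells of the newborn rat heart, of wild-type genotype. One group of 2 libraries came from cells treated with Ad-Xon-YAP5SA and the other group of 2 from cells treated with Ad-Xon-YAP5SA-S94A, so every library carried an overexpressed form of YAP. YAP is the transcriptional coactivator that the Hippo pathway restrains. YAP5SA is an activated form whose inhibitory serines are changed to alanine, and the further S94A change disrupts its binding to TEAD, the DNA-binding partner. The comparison therefore asks which levels of mitochondrial RNA went with the ability of activated YAP to bind TEAD. No uninfected or GFP library was used here, so a value lower in YAP5SA than in YAP5SA-S94A does not say which of them departed from untreated cells. The labels call the libraries biological replicates without saying whether they came from separate cultures, and the p-values measure only the spread between these samples.

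The mitochondrial chromosome is a small circle that encodes a set of hydrophobic core subunits of respiratory complexes I, III and IV and of ATP synthase, together with the rRNAs and tRNAs that translate them inside the organelle. It is transcribed from both strands into long precursors that are cut at the tRNAs, so that neighbouring genes begin life on one RNA, and the steady level of each mRNA then depends on its processing and decay. Every protein that transcribes, processes and translates these RNAs, and every other subunit of the same complexes, is encoded in the nucleus. Heart muscle is rich in mitochondria, and their transcripts are among the most abundant RNAs of a cardiomyocyte.

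The 4 libraries held between 4.02 and 5.10 gigabases of aligned sequence, with YAP5SA replicate 2 the shallowest. Of the 13419 entries tested by limma over the whole table, 4419 (32.9%) were called, meaning a Benjamini-Hochberg adjusted p under 0.05, with 2083 (15.5%) lower and 2336 (17.4%) higher in YAP5SA. The median log2 fold change over all of them was 0.00. Of the labelled cell type, the 11 cardiomyocyte markers were all tested and summed to between 25076 and 35425 TPM in a library, while 3 of the 4 erythroid markers were at 0 in every library.

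Mitochondrial RNA made up a smaller share of the YAP5SA libraries than of the YAP5SA-S94A libraries. The 37 entries together took 7.53% and 10.2% of all TPM in the YAP5SA libraries and 12.6% and 14.0% in the YAP5SA-S94A libraries. Both YAP5SA libraries lay below both YAP5SA-S94A libraries, and YAP5SA replicate 1 was the lowest. The means were 8.88% ± 1.90 (SD, n = 2) and 13.3% ± 1.03 (SD, n = 2), a log2 ratio of −0.58. The two-sided exact permutation p was 0.333, the smallest that 2 libraries against 2 can give, so the test cannot pass 0.05. Without YAP5SA replicate 2 the log2 ratio was −0.82, and without YAP5SA replicate 1 it was −0.38. Because a mitochondrial transcript that is less abundant makes room for the others within a fixed TPM sum, the share was also set against the nuclear entries alone, where the log2 ratio was −0.65. As a percentage of aligned bases, the same entries took 2.77% and 3.34% in YAP5SA against 4.41% and 4.87% in YAP5SA-S94A.

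**Figure D1:**
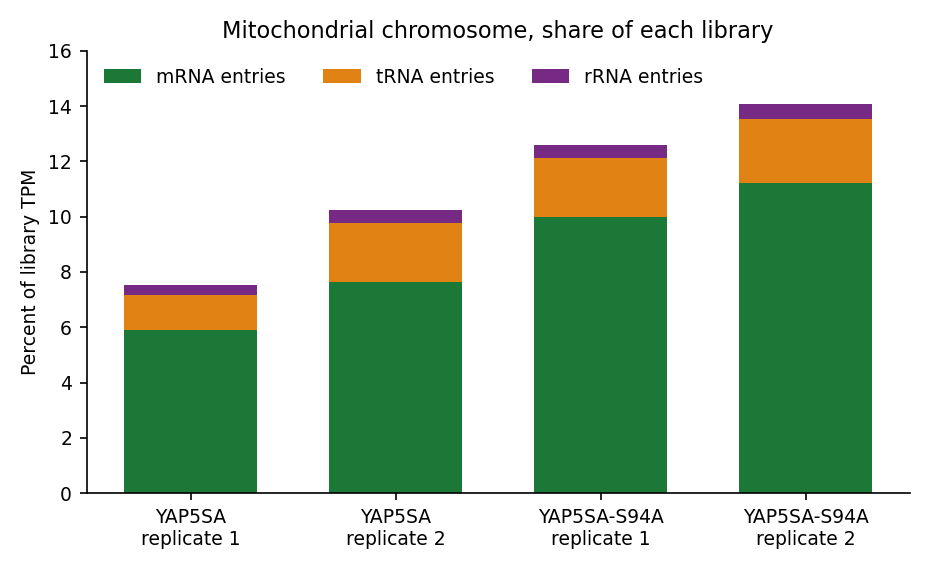
Percent of library TPM (vertical axis, from 0) taken by the mitochondrial mRNA, tRNA and rRNA entries, stacked, in each of the 4 libraries. The full bars stand at 7.53% and 10.2% for the YAP5SA libraries and at 12.6% and 14.0% for the YAP5SA-S94A libraries, and the mRNA entries take most of each bar.

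The mRNA entries carried most of this share. In YAP5SA they took 5.89% and 7.62% of TPM, and in YAP5SA-S94A 9.98% and 11.2%, a log2 ratio of −0.65 (exact permutation p = 0.333). Of the 10 most abundant entries of a library, 4 were mitochondrial in each YAP5SA library, whereas 7 and 8 were mitochondrial in the YAP5SA-S94A libraries. COX1 ranked first and the serine tRNA entry Trns1 second in every library.

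Markers of several cell types also differed between the groups, some sums lower and some higher in YAP5SA. For the counts below, 15.5% of all entries tested were called lower and 17.4% higher, and 33.8% were lower in both YAP5SA libraries. Summed TPM of the 11 cardiomyocyte markers was 25131 and 25076 in YAP5SA against 35425 and 35419 in YAP5SA-S94A, with 8 of the 11 called lower and 0 called higher (1 was higher at an unadjusted p under 0.05). The 7 smooth muscle markers summed to 6749.6 and 6522 against 1238 and 1190.3 TPM, with 3 called higher. Most of that sum was Acta2 (4927 and 4827 against 467 and 432 TPM) and Tagln (1548 and 1470.1 against 597 and 589.7 TPM), and the other 5 summed to 275 and 225 against 173 and 169 TPM. The 7 epicardial markers summed to 115 and 99.0 against 58.0 and 54.8 TPM, with 4 called higher and the other 3 lower in both YAP5SA libraries, 1 of them at an unadjusted p under 0.05. The 10 fibroblast markers summed to 9761 and 7819.6 against 7666 and 7327 TPM, with 2 called lower and 1 higher. The 8 endothelial markers summed to 27.8 and 29.3 against 38.5 and 38.8 TPM, with 1 of the 6 tested called in each direction. The calls in these lists are few and near the shares of all entries, so they are no result about either cell type. The 8 immune markers summed to 550.5 and 530.3 against 836 and 831 TPM, with 3 called lower, 1 higher, and Cd3e and Cd79b at 0 in all 4 libraries. Their part in the mitochondrial result was not tested, and in these bulk libraries fewer cells of a type and less RNA per cell cannot be told apart. Relative to the summed cardiomyocyte markers, mitochondrial mRNA stood at 2.35 and 3.04 in YAP5SA and at 2.82 and 3.15 in YAP5SA-S94A, and on this ratio the groups overlapped (exact permutation p = 0.667).

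By single entries, 22 of the 37 were called lower in YAP5SA and 0 were called higher, against 15.5% called lower among all entries tested. No entry was higher at an unadjusted p under 0.05 either, but 2 were called higher without YAP5SA replicate 1 (Trna and Trnl2) and 2 without YAP5SA-S94A replicate 2 (Trnr and Trnw). The median log2 fold change of the 37 was −0.53, with a range from −1.23 to 0.45. In 25 of the 37 both YAP5SA libraries lay below both YAP5SA-S94A libraries, against 33.8% of all entries tested, and in the other 12 the groups overlapped. The entries share precursors and lie on one chromosome, so they are not independent of one another. A fit with a library left out compares 1 library with 2, so 1 group has no spread of its own. A call gained or lost in such a fit therefore does not measure the weight of that library alone. CYTB lost its call without YAP5SA-S94A replicate 1 while its log2 fold change went from −0.48 to −0.54. All 13 mRNA entries, 1 of the 2 rRNA entries and 11 of the 22 tRNA entries were among the 25. Replicate 1 was lower than replicate 2 in 35 of the 37 entries within YAP5SA and in 33 of the 37 within YAP5SA-S94A.

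**Figure D2:**
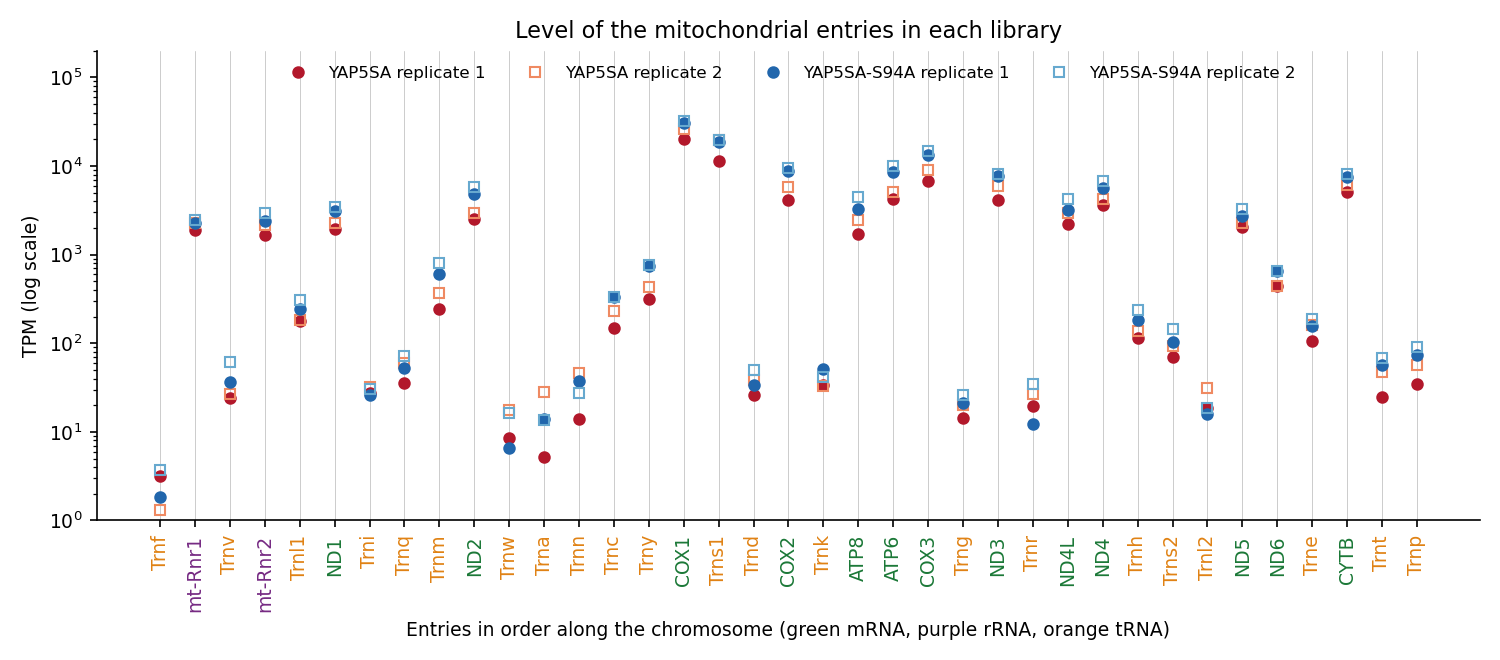
TPM on a log scale of the 37 entries in their order along the chromosome, one symbol for each of the 4 libraries. COX1 stands highest, the tRNA entries other than Trns1 lie far below the mRNA and rRNA entries, and the 2 YAP5SA libraries lie below the 2 YAP5SA-S94A libraries for all 13 mRNA entries.

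Complex I, the NADH dehydrogenase through which electrons enter the chain, has 7 mitochondrially encoded subunits. All 7 were lower in both YAP5SA libraries and 6 were called lower, against 33.8% and 15.5% of all entries tested. The median log2 fold change over the 7 was −0.64. ND2 (chromosome MT, 3904 to 4942, forward strand), a core subunit of the membrane arm, stood at 2537 and 2919 TPM in YAP5SA and at 4799.6 and 5819 TPM in YAP5SA-S94A. The groups were well apart, and ND2 fell by 0.96 on the log2(TPM + 1) scale (SE 0.13, limma adjusted p = 0.00141). It was called under each of the 16 other settings of the fit.

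ND3 (9451 to 9798), a small subunit at the joint of the arms of the complex, stood at 4127 and 5948 TPM against 7805 and 8197 TPM (log2 fold change of −0.69 with an SE of 0.17, limma adjusted p = 0.0182). The call of ND3 was lost with no filter (adjusted p = 0.134) and with no intensity trend (0.0601). ND1 (2740 to 3694), which lies at the quinone-binding end of the membrane arm, stood at 1929 and 2283 TPM against 3073 and 3476 TPM (log2 fold change of −0.64, limma adjusted p = 0.00587). ND4 (10160 to 11537), a proton-pumping subunit, stood at 3587 and 4289 TPM against 5631 and 6702 TPM (log2 fold change of −0.65, limma adjusted p = 0.00867), and without YAP5SA-S94A replicate 2 it was not called (adjusted p = 0.0528). In each of these 3 genes the higher YAP5SA library stayed below the lower YAP5SA-S94A library.

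ND5 (11736 to 13565), the largest pump subunit, differed less. It stood at 2065 and 2298 TPM in YAP5SA against 2755 and 3299.6 TPM in YAP5SA-S94A (log2 fold change of −0.47 with an SE of 0.12, limma adjusted p = 0.0204). The groups did not overlap, but the call was lost in 4 of the 16 other settings. These were no filter (adjusted p = 0.113), no intensity trend (0.0744) and the fits without YAP5SA replicate 1 (log2 fold change of −0.39) or YAP5SA-S94A replicate 2 (−0.34). ND4L (9870 to 10166), a small subunit of the membrane arm read from the same mRNA as ND4, stood at 2191 and 2940.5 TPM against 3189 and 4201 TPM and was not called (log2 fold change of −0.53 with an SE of 0.18, limma adjusted p = 0.0575). The 7 settings that called it included the fits without YAP5SA replicate 2 (log2 fold change of −0.74) and without YAP5SA-S94A replicate 1 (−0.73).

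ND6 (13543 to 14061, reverse strand) was the only mRNA entry on the opposite strand. It stood at 437 and 447 TPM in YAP5SA and at 653 and 652 TPM in YAP5SA-S94A, the tightest replicates, relative to the mean, among the mRNA entries. It fell by 0.56 on the log2(TPM + 1) scale (SE 0.08, limma adjusted p = 0.00238) and was called under each of the 16 other settings. It was also the least abundant mRNA entry in every library.

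CYTB (14136 to 15278), cytochrome b, is the only subunit of complex III encoded in the mitochondrion. It stood at 5151 and 6169 TPM in YAP5SA and at 7559 and 8186 TPM in YAP5SA-S94A. Both YAP5SA libraries were lower, and CYTB fell by 0.48 on the log2 scale (SE 0.12, limma adjusted p = 0.0188). The call was lost without YAP5SA-S94A replicate 1 (adjusted p = 0.0557), without YAP5SA-S94A replicate 2 (0.148) and with quantile scaling (0.0842).

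Complex IV, cytochrome c oxidase, takes its 3 catalytic core subunits from the mitochondrion. All 3 were lower in both YAP5SA libraries, and 2 of them were called lower, against 33.8% and 15.5% of all entries tested. COX2 (7006 to 7689), which receives electrons from cytochrome c, stood at 4162 and 5834 TPM in YAP5SA against 8716 and 9394 TPM in YAP5SA-S94A (log2 fold change of −0.88 with an SE of 0.16, limma adjusted p = 0.00587). COX3 (8599 to 9382) stood at 6783 and 9041 TPM against 13355 and 14646 TPM (log2 fold change of −0.84 with an SE of 0.15, limma adjusted p = 0.00522). In both genes the YAP5SA-S94A libraries stood clear above the YAP5SA libraries, by 1.81-fold and 1.77-fold in the means.

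COX1 (5323 to 6867), the subunit that holds the oxygen-reducing centre, was the most abundant entry of every library and did not pass the test. It stood at 20085 and 26505 TPM in YAP5SA and at 30402 and 32646 TPM in YAP5SA-S94A. The groups did not overlap, but the 2 YAP5SA libraries lay far apart (SD 4539.8 TPM), and the log2 fold change of −0.45 (SE 0.15) had a limma adjusted p of 0.0552. It was called with TPM scaled to the nuclear sum (−0.52, adjusted p = 0.0311), with FPKM (−0.48, 0.0227), with robust variance moderation (0.0421) and with the replicate number as a block (0.00228). Without YAP5SA replicate 2 its log2 fold change was −0.65. With quantile scaling its difference was 0.00, since that scaling gives the top-ranked entry the same value in every library.

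Both mitochondrially encoded subunits of ATP synthase fell, and by more than the mRNA entries' median of −0.65. ATP6 (7919 to 8599), the subunit that forms the proton channel with the rotor ring, stood at 4204 and 5040.4 TPM in YAP5SA and at 8578 and 10079.7 TPM in YAP5SA-S94A. This was 2.02-fold higher in YAP5SA-S94A, with no overlap (log2 fold change of −1.01 with an SE of 0.13, limma adjusted p = 0.00122), and the call held under each of the 16 other settings. ATP8 (7758 to 7961), a short subunit of the stator, stood at 1693 and 2441 TPM against 3258 and 4435 TPM (log2 fold change of −0.90 with an SE of 0.20, limma adjusted p = 0.0135).

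**Figure D3:**
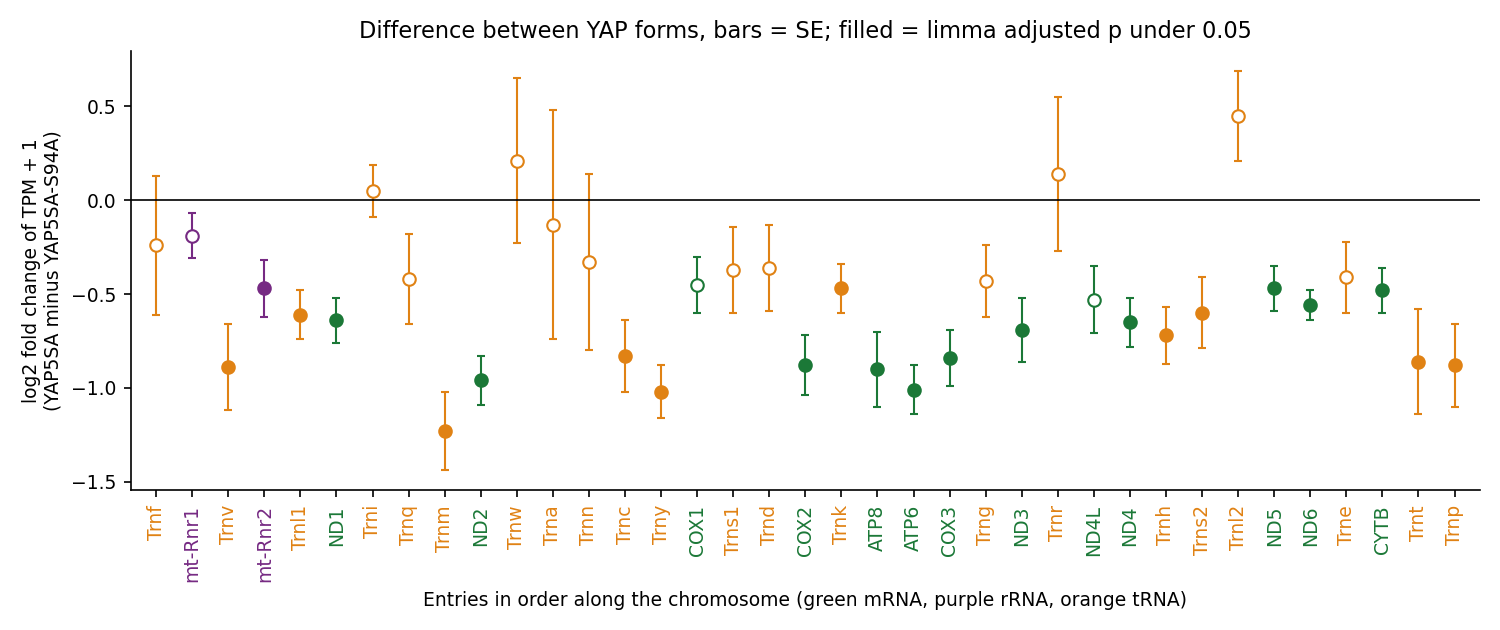
Log2 fold change of TPM + 1 (YAP5SA minus YAP5SA-S94A) of the 37 entries in their order along the chromosome. Bars are SE, filled symbols have a limma adjusted p under 0.05, and colours mark mRNA, rRNA and tRNA entries. The mRNA entries lie between −1.01 and −0.45, mt-Rnr1 is at −0.19, and the open tRNA symbols with long bars include the 4 entries above 0.

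The mRNA entries did not differ by the same factor in the means, so their mix also differed between these libraries. COX1 made up 34.1% and 34.8% of the summed mRNA TPM in YAP5SA against 30.5% and 29.2% in YAP5SA-S94A, a difference of 4.59 percentage points in the means. CYTB took 8.74% and 8.10% against 7.58% and 7.33%, and ND5 3.50% and 3.02% against 2.76% and 2.95%. These 3 shares were higher in both YAP5SA libraries, and 5 were lower in both. ATP6 took 7.13% and 6.62% of the sum in YAP5SA against 8.60% and 9.02% in YAP5SA-S94A. COX3 took 11.5% and 11.9% against 13.4% and 13.1%, COX2 7.06% and 7.66% against 8.74% and 8.41%, and ND2 on average 4.07% ± 0.333 against 5.01% ± 0.281 (SD, n = 2). The fifth, ATP8, took 2.87% and 3.21% against 3.27% and 3.97%. For the remaining 5 (ND1, ND3, ND4L, ND4 and ND6) the shares overlapped. These shares are a description, with no test, and they must sum to the whole, so one that is higher makes others lower. Groups that lay apart were also common among the TPM values of all 13419 entries tested. There, 4533 (33.8%) were lower and 4624 higher in both YAP5SA libraries. Shares that lie apart therefore do not by themselves set the mitochondrial mRNAs apart from other entries.

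**Figure D4:**
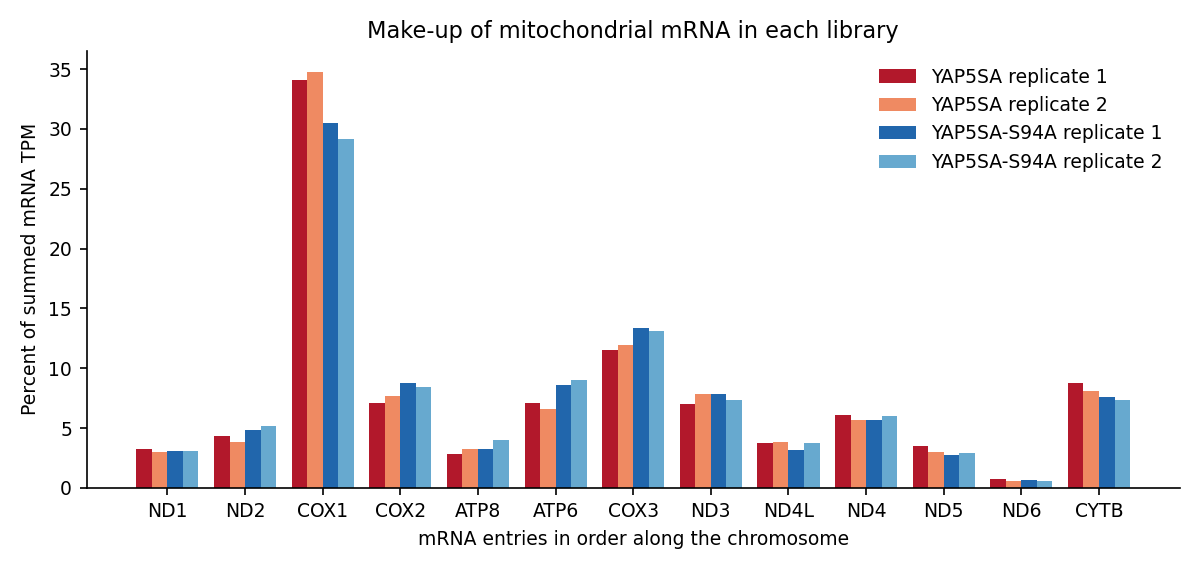
Percent of the summed mitochondrial mRNA TPM (vertical axis, from 0) taken by each of the 13 mRNA entries in each library. The COX1 bars stand at 34.1% and 34.8% in YAP5SA and at 30.5% and 29.2% in YAP5SA-S94A, while ATP6, COX2 and COX3 show the opposite order.

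Ratios between pairs of entries are quotients of the shares above and, like them, do not depend on the library total. They restate those values in another form and are no separate support. ATP6 stood at 0.209 and 0.190 of COX1 in YAP5SA and at 0.282 and 0.309 of it in YAP5SA-S94A. COX2 was at 0.207 and 0.220 of COX1 against 0.287 and 0.288, and COX3 at 0.338 and 0.341 against 0.439 and 0.449. All 3 ratios were lower in both YAP5SA libraries (exact permutation p = 0.333 each, the smallest possible), which follows from the shares. CYTB to COX1, at 0.256 and 0.233 against 0.249 and 0.251, overlapped between the groups. A ratio of this kind shows unequal change and not which of its terms differed.

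ATP8 and ATP6 are read from one mRNA, as are ND4L and ND4. ATP8 and ATP6 overlap by 43 bases on the same strand, and ATP8 stood at 0.403 and 0.484 of ATP6 in YAP5SA against 0.380 and 0.440 in YAP5SA-S94A. ND4L and ND4 overlap by 7 bases, and ND4L stood at 0.611 and 0.686 of ND4 against 0.566 and 0.627. In both pairs the groups overlapped (exact permutation p = 0.667 each). Of the 37 entries 13 shared bases with a neighbour, and how the authors' counting divided reads in such spans is not given in the sources used here.

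ND6 was also set against the mRNAs of the other strand. ND6, from the light-strand precursor, stood at 0.00746 and 0.00590 of the summed 12 mRNA entries of the other strand in YAP5SA, and at 0.00659 and 0.00587 of it in YAP5SA-S94A. The groups overlapped (log2 ratio 0.10, exact permutation p = 0.667), and without YAP5SA replicate 1 the log2 ratio was −0.08. ND6 shares 23 bases with the 3′ end of ND5 on the opposite strand. The libraries were directional, but whether the counting used strand is not stated, so ND6 reads and antisense reads across its span cannot be told apart.

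The 2 rRNA entries, which form the core of the mitochondrial ribosome, had log2 fold changes of −0.19 and −0.47, against a median of −0.65 for the mRNAs. The small-subunit rRNA mt-Rnr1 (68 to 1025) stood at 1901 and 2278 TPM in YAP5SA and at 2256 and 2490.0 TPM in YAP5SA-S94A. Its groups overlapped, and it was not called (log2 fold change of −0.19 with an SE of 0.12, limma adjusted p = 0.254), although it was without YAP5SA replicate 2 (−0.32, adjusted p = 0.0438) and with quantile scaling (−0.35, 0.0304). The large-subunit rRNA mt-Rnr2 (1094 to 2664) stood at 1679 and 2176 TPM against 2415 and 2913 TPM. It lay lower in both YAP5SA libraries and fell by 0.47 (SE 0.15, limma adjusted p = 0.0472), a call lost in 7 of the 16 other settings, among them the fits without YAP5SA replicate 1 (adjusted p = 0.121) and without YAP5SA-S94A replicate 2 (0.241).

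Set against the mRNAs, the rRNA entries were higher in YAP5SA. Their summed TPM stood at 0.0607 and 0.0585 of the mRNA sum in YAP5SA and at 0.0468 and 0.0484 of it in YAP5SA-S94A, a log2 ratio of 0.33 (exact permutation p = 0.333). Replicates lay close together and the groups apart. The ratio of mt-Rnr1 to mt-Rnr2 was 1.13 and 1.05 in YAP5SA and 0.934 and 0.855 in YAP5SA-S94A, so the smaller rRNA was the more abundant in one group and the less abundant in the other (exact permutation p = 0.333). The RNA had been selected by its poly(A) tail, and rRNA levels after such selection are not levels of total rRNA.

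The tRNA entries spanned a wide range, from a mean of 2.50 TPM for Trnf, the phenylalanine tRNA, to 17316 TPM for Trns1. Each entry is only 60 to 75 bases long, so its value can include reads of longer transcripts that cross it, and mature tRNA cannot be told apart from such precursors or neighbours here. Of the 22 entries 10 were called lower in YAP5SA and 0 higher, against 15.5% and 17.4% of all entries tested. At an unadjusted p under 0.05 also 0 were higher, and the median log2 fold change was −0.42. The 14 entries annotated on the forward strand gave 7 of these calls and the 8 on the reverse strand gave 3. Whether the counting used strand is not stated, so this split may not separate transcripts of the 2 strands.

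Trnm, the methionine tRNA (3835 to 3903), showed the largest difference of all 37 entries. It stood at 242 and 369.8 TPM in YAP5SA and at 608 and 811 TPM in YAP5SA-S94A (log2 fold change of −1.23 with an SE of 0.21, limma adjusted p = 0.00473). It adjoins the 5′ end of ND2, and its ratio to ND2, at 0.0956 and 0.127 against 0.127 and 0.139, overlapped between the groups. Trny, the tyrosine tRNA on the opposite strand just before COX1 (5256 to 5321), stood at 319.8 and 434 TPM against 748 and 769 TPM and fell by 1.02 (SE 0.14, limma adjusted p = 0.00186). Both were called under each of the 16 other settings.

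Trnc, the cysteine tRNA next to Trny, stood at 149 and 233 TPM in YAP5SA against 331 and 333 TPM in YAP5SA-S94A (log2 fold change of −0.83, limma adjusted p = 0.0148). Relative to COX1, whose start lies 1 base beyond Trny, Trny was at 0.0159 and 0.0164 against 0.0246 and 0.0236, lower in both YAP5SA libraries. The other called tRNA entries were those for valine (Trnv, −0.89), proline (Trnp, −0.88), threonine (Trnt, −0.86), histidine (Trnh, −0.72), leucine (Trnl1, −0.61), serine (Trns2, −0.60) and lysine (Trnk, −0.47), all log2 fold changes. Leaving out 1 library ended the call of Trnt (without YAP5SA replicate 1), Trnl1 (without YAP5SA-S94A replicate 2), Trns2 (without either of those 2), Trnk (without YAP5SA replicate 2 or YAP5SA-S94A replicate 1) and Trnv (when any library other than YAP5SA-S94A replicate 1 was left out).

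Trns1, a serine tRNA entry on the reverse strand (6865 to 6933), was the second most abundant entry of each library. It stood at 11321 and 19564 TPM in YAP5SA and at 18542 and 19836 TPM in YAP5SA-S94A, far above every other tRNA entry. The groups overlapped, because YAP5SA replicate 2 lay between the YAP5SA-S94A libraries. Trns1 was not called (log2 fold change of −0.37 with an SE of 0.23, limma adjusted p = 0.268), and without YAP5SA replicate 2 its log2 fold change was −0.76. Its span overlaps the 3′ end of COX1 by 3 bases on the opposite strand, and mammalian COX1 mRNA is known to run on through the antisense of this tRNA. The entry stood at 0.564 and 0.738 of COX1 in YAP5SA and at 0.610 and 0.608 of it in YAP5SA-S94A, whereas Trnd, the aspartate tRNA whose span starts after a gap of 3 bases, reached only 0.00231 and 0.00198 of Trns1 against 0.00183 and 0.00253. Without strand, reads of Trns1 and of COX1 mRNA cannot be told apart.

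Trns1 set the total of its class. With it, the tRNA entries took 1.28% and 2.16% of TPM in YAP5SA against 2.14% and 2.32% in YAP5SA-S94A, and the groups overlapped. Without it, the other 21 took 0.147% and 0.207% against 0.282% and 0.335%, with no overlap and a log2 ratio of −0.80 (exact permutation p = 0.333).

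The 12 tRNA entries that were not called included the 4 with a higher mean log value in YAP5SA, for leucine (Trnl2, 0.45, limma adjusted p = 0.193), tryptophan (Trnw, 0.21), arginine (Trnr, 0.14) and isoleucine (Trni, 0.05). In all 4 the groups overlapped. Trnl2 stood at 18.4 and 31.1 TPM in YAP5SA against 15.9 and 18.8 TPM in YAP5SA-S94A. Trna, for alanine, shows how much single libraries weigh at low levels. At 5.22 and 28.2 TPM against 14.1 and 13.5 TPM, its log2 fold change was −0.13 with all libraries, 0.98 without YAP5SA replicate 1 and −1.25 without YAP5SA replicate 2. Trnf stood at 3.15 and 1.32 TPM against 1.84 and 3.70 TPM, also overlapping. The remaining uncalled entries besides Trns1 were those for glutamine (Trnq, −0.42), asparagine (Trnn, −0.33), aspartate (Trnd, −0.36), glycine (Trng, −0.43) and glutamate (Trne, −0.41), and in Trng alone of these 5 were both YAP5SA libraries lower. Without YAP5SA replicate 2 the entries Trnq, Trnn, Trng and Trne were called lower, and without YAP5SA-S94A replicate 1 Trnq, Trnd and Trne were.

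The nuclear genes that make and use mitochondrial RNA were counted in 11 lists of textbook members, 258 of whose genes were tested. Of these 71 (27.5%) were called lower and 13 (5.04%) higher in YAP5SA, against 15.5% lower and 17.4% higher among all entries tested. Their median log2 fold change was −0.18. In the list counts below, fell and rose mean called lower and called higher. With YAP5SA-S94A replicate 1 left out the lower calls numbered 30 (11.6%), near the 9.67% then called lower among all entries. With YAP5SA-S94A replicate 2 left out they numbered 31 (12.0%), against 9.75% of all entries. Among the genes that transcribe the mitochondrial chromosome, 2 of 11 fell and 1 rose, and a share of 18.2% lower is close to that of all entries. Tfam, which packages the DNA and starts transcription, stood at 55.9 and 58.2 TPM in YAP5SA against 64.7 and 58.8 TPM in YAP5SA-S94A and was not called (log2 fold change of −0.11 with an SE of 0.11, limma adjusted p = 0.465). Polrmt, the mitochondrial RNA polymerase, stood at 14.3 and 10.0 against 19.1 and 16.7 TPM (log2 fold change of −0.54, limma adjusted p = 0.0699).

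Polrmt was thus lower in both YAP5SA libraries but not called, and it was called in 6 of the 16 other settings. These were the fit without YAP5SA replicate 1 (adjusted p = 0.0121), the 4 other scalings of TPM (0.0339 to 0.0433) and the replicate block (0.0166). The initiation factor Tfb2m (−0.05, limma adjusted p = 0.803) and the elongation factor Tefm (−0.31, 0.110) were not called. Tfb1m, which methylates the small rRNA mt-Rnr1, rose from 6.33 and 7.94 TPM in YAP5SA-S94A to 10.6 and 14.8 TPM in YAP5SA (log2 fold change of 0.74 with an SE of 0.21, limma adjusted p = 0.0320), and was not called when YAP5SA replicate 2 was left out, nor when YAP5SA-S94A replicate 1 was (0.142). The 2 that fell were Mtres1, a transcription rescue factor (−0.47), and Mrpl12, a ribosomal protein that also binds the polymerase (−0.38). Both calls were lost when either YAP5SA-S94A library was left out, and that of Mrpl12 also without YAP5SA replicate 2.

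Of 36 genes for processing, modification and stability of mitochondrial RNA, 9 (25.0%) were called lower and 2 (5.56%) higher, against 15.5% and 17.4% of all entries. By sign 17 of the 36 were lower and 19 higher, with a median of 0.03. Grsf1, an RNA-binding protein of mitochondrial RNA granules, fell from 165 TPM in both YAP5SA-S94A libraries to 93.9 and 100.3 TPM in YAP5SA (log2 fold change of −0.76 with an SE of 0.09, limma adjusted p = 0.00109) and was called under all 16 other settings. Lrpprc, which stabilises mitochondrial mRNAs and their poly(A) tails, stood at 49.2 and 52.1 TPM against 70.5 and 73.6 TPM and fell (log2 fold change of −0.50 with an SE of 0.10). Its binding partner Slirp, at 17.7 and 21.9 TPM against 14.0 and 15.6 TPM, was not called (0.39, limma adjusted p = 0.101). Without YAP5SA replicate 1 the log2 fold change of Slirp was 0.53. The pseudouridine synthase gene Rpusd4 fell (−0.68), and the exonuclease gene Rexo2 (0.49) and the rRNA methyltransferase gene Mrm3 (0.64) rose. With either YAP5SA-S94A library left out, fewer genes of the list were called lower, a share below that of all entries in the same fit. The calls of Lrpprc and Rpusd4 were then lost. The call of Rexo2 was lost when replicate 2 of either form was left out, and that of Mrm3 when any library other than YAP5SA-S94A replicate 1 was.

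Replication and maintenance of the chromosome gave 3 lower and 2 higher calls among 19 genes, shares of 15.8% and 10.5% that are close to or below the 15.5% and 17.4% of all entries. Polg, the mitochondrial DNA polymerase, rose from 20.4 and 20.6 TPM in YAP5SA-S94A to 36.4 and 29.2 TPM in YAP5SA (log2 fold change of 0.64 with an SE of 0.14, limma adjusted p = 0.0137). Its accessory subunit Polg2 fell (−0.83, limma adjusted p = 0.0413), as did the pyrimidine nucleotide carrier Slc25a33 (−0.77) and the deoxyguanosine kinase Dguok (−0.47), while Atad3a, a membrane protein linked to nucleoids, rose (0.43). The helicase gene Twnk was not called (−0.28, limma adjusted p = 0.423), but without YAP5SA replicate 1 its log2 fold change was −0.66. The call of Polg2 was lost without YAP5SA replicate 2 or YAP5SA-S94A replicate 1, that of Dguok when either YAP5SA-S94A library was left out, and that of Atad3a when any library other than YAP5SA replicate 2 was.

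Regulators of mitochondrial biogenesis fell in 7 of 15 cases (46.7%) and rose in 1 (6.67%), against 15.5% and 17.4% of all entries. Ppargc1a, which encodes the coactivator PGC-1 alpha, stood at 24.0 and 17.3 TPM in YAP5SA against 37.8 and 41.1 TPM in YAP5SA-S94A (log2 fold change of −0.92 with an SE of 0.17, limma adjusted p = 0.00620). The estrogen-related receptor gene Esrrg stood at 17.8 and 19.0 against 39.1 and 43.0 TPM (−1.11, limma adjusted p = 0.000729). Ppara, a nuclear receptor of fatty acid metabolism (−1.47), and Sirt3, a mitochondrial deacetylase (−1.10), also fell, and these 4 were called under all 16 other settings. The related coactivator gene Pprc1 rose (0.66, limma adjusted p = 0.00870), which was not called with YAP5SA-S94A replicate 1 left out (0.0575).

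Of 22 genes tested for mitophagy and for mitochondrial fusion and fission, 9 fell and 0 rose, with 1 higher at an unadjusted p under 0.05. The share called lower was 40.9%, against 15.5% of all entries. Pink1, the kinase that marks damaged mitochondria, stood at 106 and 80.8 TPM in YAP5SA against 375 and 360.3 TPM in YAP5SA-S94A (log2 fold change of −1.98 with an SE of 0.14, limma adjusted p = 8.27e-05). The autophagy receptor gene Sqstm1 fell by 1.40 and the fusion gene Mfn1 by 0.84 on the log2 scale. These 3 were called under all 16 other settings.

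The nuclear partners of the mitochondrially encoded subunits were lower as well, by less. Of 77 nuclear subunits of complexes I, III and IV and ATP synthase tested, 32 fell and 1 rose, against 15.5% and 17.4% of all entries. These nuclear subunits had a median of −0.29, against −0.65 for the 13 mitochondrial mRNA entries. In YAP5SA they took 4.69% and 4.68% of TPM together, and in YAP5SA-S94A 6.03% and 5.81%. The ratio of mitochondrial mRNA to these nuclear subunits was 1.26 and 1.63 in YAP5SA and 1.65 and 1.92 in YAP5SA-S94A. Both YAP5SA libraries were lower on it, with YAP5SA replicate 2 almost level with YAP5SA-S94A replicate 1 (exact permutation p = 0.333). Relative to the summed cardiomyocyte markers, the nuclear subunits were higher in YAP5SA, at 1.87 in both libraries against 1.70 and 1.64 (exact permutation p = 0.333).

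By complex, the medians of nuclear and mitochondrial subunits were −0.21 and −0.64 for complex I, −0.34 and −0.48 for complex III, −0.37 and −0.84 for complex IV and −0.29 and −0.96 for ATP synthase. For ATP synthase the ratio of mitochondrial to nuclear subunits was 0.355 and 0.432 in YAP5SA against 0.524 and 0.667 in YAP5SA-S94A, and for complex I it was 1.47 and 1.85 against 2.05 and 2.50. For complex IV, at 2.19 and 3.06 against 2.82 and 3.15, the groups overlapped. The difference between the medians was not tested. Of the nuclear subunits, 33.3% were called lower in complex I and 44.4% in complex III. The share was 53.3% in complex IV and 47.1% in ATP synthase, against 15.5% of all entries tested.

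**Figure D5:**
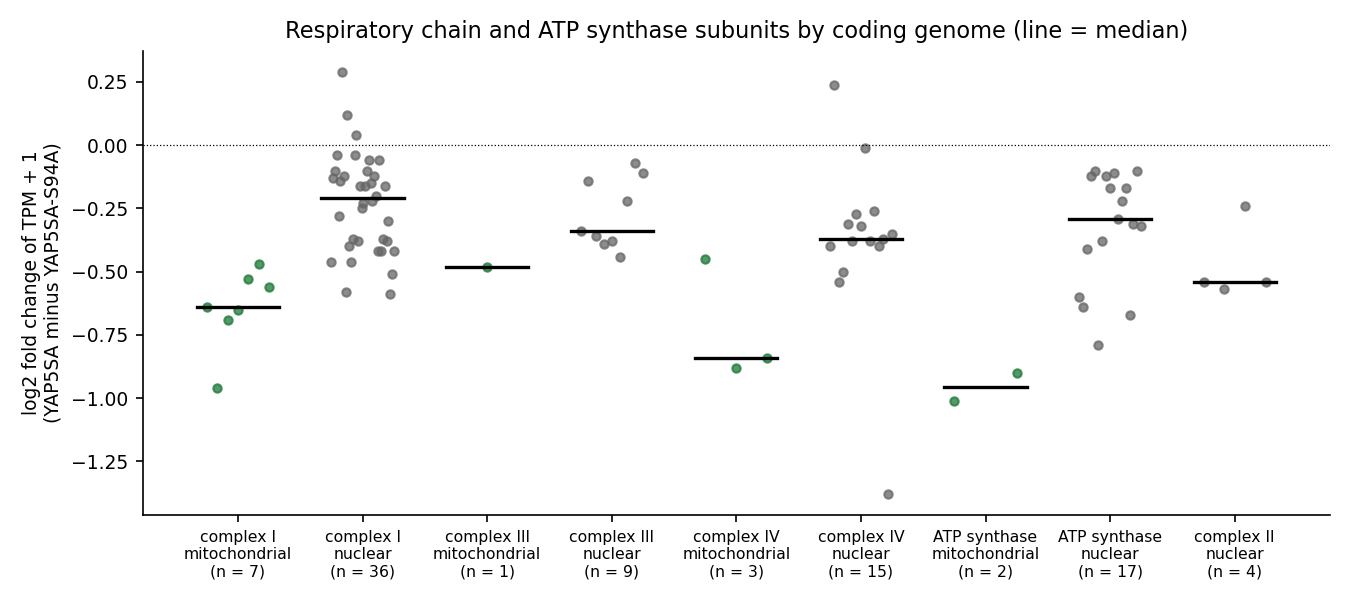
Log2 fold change of TPM + 1 (YAP5SA minus YAP5SA-S94A) of respiratory chain and ATP synthase subunits, grouped by complex and by the genome that encodes them. Each point is a gene and each line a median, which stands at −0.64 and −0.21 for mitochondrial and nuclear complex I subunits and at −0.96 and −0.29 for those of ATP synthase.

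Among nuclear complex I subunits 12 of 36 fell and 1 rose. Ndufa6 stood at 287 and 321 TPM against 479 and 430.3 TPM (log2 fold change of −0.58 with an SE of 0.10, limma adjusted p = 0.00519), Ndufv2 fell by 0.51 and Ndufa9 by 0.46, and the accessory subunit gene Ndufa3 rose by 0.29 (limma adjusted p = 0.0377). With either YAP5SA-S94A library left out, fewer subunits were called lower, a share below that of all entries in the same fit. Ndufa6 alone of these 4 was called under all 16 other settings. In complex III 4 of 9 fell and 0 rose (0 also at an unadjusted p under 0.05), among them Uqcrc2 (−0.44), Uqcr11 (−0.36) and Cyc1 (−0.34). These calls were lost with either YAP5SA-S94A library left out, where the share called lower among all entries was also smaller.

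In complex IV 8 of 15 fell and 0 rose (0 also unadjusted). Cox8b, the muscle form of a small subunit, stood at 271 and 296 TPM in YAP5SA against 673 and 808 TPM in YAP5SA-S94A (log2 fold change of −1.38 with an SE of 0.11, limma adjusted p = 0.000185), the largest difference among the 77. Cox5a fell by 0.54 and Cox5b by 0.50, the latter not called without YAP5SA-S94A replicate 1. With either YAP5SA-S94A library left out, fewer subunits of complex IV were called lower, and the share called lower among all entries was also smaller.

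In ATP synthase 8 of 17 fell and 0 rose (0 also unadjusted). Atp5f1b, the catalytic beta subunit, stood at 3396 and 3336 TPM against 5326 and 5187 TPM (log2 fold change of −0.64 with an SE of 0.09, limma adjusted p = 0.00166). Atp5if1, which encodes the inhibitor of the reverse reaction, fell by 0.79 and the stator subunit gene Atp5pb by 0.67. Fewer ATP synthase subunits were called lower with either YAP5SA-S94A library left out, and more without YAP5SA replicate 2. Among all entries the share called lower was also smaller in the former fits and about the same in the latter. Complex II, succinate dehydrogenase, has no mitochondrially encoded subunit. Of its 4 nuclear subunits 3 fell, against 15.5% of all entries, with 0 higher at any p under 0.05. Sdhb stood at 286 and 295 TPM against 428 and 435 TPM (log2 fold change of −0.57 with an SE of 0.08, limma adjusted p = 0.00246), and Sdhd and Sdha each fell by 0.54.

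Of the 74 proteins of the mitochondrial ribosome tested, 6 fell and 6 rose, 8.11% in each direction against 15.5% and 17.4% of all entries, with a median of −0.07. Mrps6 rose from 98.9 and 97.9 TPM in YAP5SA-S94A to 167 and 175 TPM in YAP5SA (log2 fold change of 0.79 with an SE of 0.09, limma adjusted p = 0.000858), and Mrpl49 (0.68) and Mrpl17 (0.49) rose with it. Mrpl15 stood at 114 and 125 TPM in YAP5SA against 196 and 198 TPM in YAP5SA-S94A (−0.72, SE 0.10, limma adjusted p = 0.00145), and Mrps35 (−0.58) and Mrps5 (−0.50) fell too. With any single library left out, the share of this list called lower, and the share called higher, stayed below that of all entries in the same fit. Mrps6, Mrpl49 and Mrpl15 were called under all 16 other settings, while Mrpl17, Mrps35 and Mrps5 were not called without YAP5SA-S94A replicate 2, nor was Mrps5 without YAP5SA-S94A replicate 1.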

How the data were processed

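Values of poly(A) RNA from directional libraries of the 4 RNA-seq samples were used, and the CUT&RUN samples (6) were left aside. Per the submitters' processing notes, the build was rn7 and the tools included StringTie 2.2.1, HISAT2 2.2.1 and fastp, with no settings stated. The TPM and FPKM values were computed by the authors and deposited per gene. The deposited coverage signal, per the file headers, is the mean depth over a gene, and its product with length gave the shares of aligned bases. Aligned gigabases per library were worked out from the ratio of coverage to FPKM. Read counts were not used here. Nuclear entries that share a name on one reference sequence were summed (40029 rows), and mitochondrial entries were kept apart.

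Entries with a mean TPM of at least 1 (13419) entered a limma fit of log2(TPM + 1) on the group (limma 3.58.1, R 4.3.3). Variances were moderated along an intensity trend, with 2 residual and 5.09 prior degrees of freedom. Benjamini-Hochberg adjustment covered all 13419 entries, and an adjusted p under 0.05 was a call. A fold change on this scale understates that of low entries. Shares and ratios were compared by two-sided exact permutation tests (scipy 1.17.1). On simulated data with 200 changed genes among 13419, the fit recovered 79% at a log2 size of 1 and 99% at a size of 2. Of its 187 calls 9 were false. The simulated noise was independent between genes, and the changed genes all lay above a low level. In the real data 32.9% of entries were called, and the mitochondrial entries are not independent of one another. The simulated rates therefore do not carry over to those entries or to log2 sizes below 1.

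The members and the lists were chosen with earlier results of these data known. All members are named. From each nuclear list up to 3 called genes in each direction with the smallest p are named, together with Tfam, Polrmt, Tfb2m, Tefm, Lrpprc, Slirp, Polg, Twnk and Ppargc1a. The listed genes Atp5mj, Mrpl9, Mrpl11 and Mrpl24 were not analysed here. Ndufs6 and Calcoco2 were listed at 0 in every library and were not tested. The fit was repeated with other pseudocounts, low-value filters, FPKM, scalings, variance moderation and thresholds, with a block for replicate number, and with single libraries left out.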

Additional observations from a re-analysis of the deposited data

How the results depend on the processing

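The fit was repeated under 16 other settings and at a stricter threshold. ATP6, ND2, ND6, Trnm and Trny were called lower in all 16. The count of 22 entries called lower was 19 to 29 under other pseudocounts, units and scalings, a higher filter, robust moderation and the block below. It was 5 with no filter (21057 entries tested), 12 with no intensity trend and 9 at an adjusted p under 0.01, and from 15 to 29 with a library left out. The count called higher was from 0 to 2 with a library left out, Trna and Trnl2 without YAP5SA replicate 1 and Trnr and Trnw without YAP5SA-S94A replicate 2. Among the nuclear lists, the 71 lower and 13 higher calls became 36 and 3 with no filter, 35 and 6 with no trend, and 28 and 3 at an adjusted p under 0.01, with ranges from 30 to 95 and from 7 to 19 when a library was left out. The stricter threshold makes fewer calls by construction. For the other settings the cause was not tested.

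The replicate number as a block gave 29 entries called lower and 1 called higher (Trnl2), and 87 and 17 nuclear list genes. Libraries of the same number deviated together only weakly (r = 0.0982 over 13419 genes), so the numbers are not taken to pair the libraries, although replicate 1 was the lower one in most mitochondrial entries of both groups (35 and 33 of 37).

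The log2 ratio of the mitochondrial share ran from −0.82 to −0.38 with a library left out. That of rRNA to mRNA was 0.23 from sequenced bases, 0.47 for mt-Rnr1 alone and 0.18 for mt-Rnr2 alone, and that of ND6 to the other mRNAs ran from −0.08 to 0.26. Signs also turned, with a library left out, for Trna (from −1.25 to 0.98), Trnn (−1.16 to 0.50), Trnw (−0.39 to 0.81), Trnr (−0.57 to 0.84), Trnf (−0.66 to 0.18), Trni (−0.06 to 0.17) and Trns1 (−0.76 to 0.03), none of them called with all libraries, and for differences in mRNA shares that overlapped between groups, in percentage points: ND1 (from −0.10 to 0.18), ND3 (from −0.58 to 0.23, and 0.47 among entries that overlap no neighbour), ND4 (from −0.19 to 0.26) and ND6 (from −0.03 to 0.12). Read counts per entry were not used here, so no counting interval is given for low entries.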
